A study of Mus musculus with 4 samples.

Results

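The 9 genes described here are the JAK, STAT and SOCS genes Jak2, Stat2, Stat3, Stat5a, Stat5b, Socs1, Socs2, Socs3 and Cish, read in mouse bone marrow. They were chosen by name, as the probe sets whose platform gene symbol was 1 of these 9 symbols. They had 23 probe sets, a probe set being the group of array probes that reads a transcript, out of 45101 on the array. All 9 were bright enough to be tested, among 12378 tested genes and 18193 genes named by a probe set with a single symbol.

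The study set 2 arrays of marrow from mice with leukemia driven by MN1, a transcriptional coregulator, against 2 arrays of mature myeloid marrow cells from healthy mice. Both groups were C57BL/6J, and their ages are not analysed here. For the group named MN1 leukemic, marrow was taken from donors 4 days after 150 mg/kg of 5-fluorouracil and kept for 48 hours with interleukin-6 (10 ng/mL), interleukin-3 (6 ng/mL) and stem cell factor (20 ng/mL). MN1 was then brought in by coculture with GP+ E86 cells, which release the retrovirus. Cells sorted for the marker GFP were kept in the same cytokines and injected, with unmodified helper marrow, into syngeneic recipients irradiated with 750 cGy. The labels do not say that the leukemic marrow was sorted before RNA extraction, so it may hold recipient and helper cells. For the group named Gr1/Mac1, cells of healthy mice were chosen for the surface antigens Gr1 and CD11b (Mac1), which mark granulocytes and monocytes. Since none of the 4 arrays holds normal immature cells, an effect of MN1 and a difference in maturity cannot be told apart. The design text calls the arrays of each group biological replicates, and their number limits the precision of every value.

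In JAK-STAT signalling, a cytokine brings its receptor chains together, and the Janus kinases bound to them phosphorylate the receptor and then STAT proteins. The STATs pair, enter the nucleus and switch on target genes. JAK2 serves the receptors for erythropoietin, interleukin-3 and GM-CSF, and in these pathways STAT5A and STAT5B are the main STATs. STAT3 is the main STAT downstream of gp130, the shared chain of the interleukin-6 family, and is also used by the G-CSF receptor, while STAT2 acts in the response to type I interferon. SOCS proteins and CISH are made in response to STATs and shut the same receptors down. CISH and SOCS2 are classical STAT5 targets and SOCS3 a classical STAT3 target, and SOCS1 restrains interferon signalling.

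Pairs of activated STAT3 or STAT5 bind palindromic sites of the form TTCNNNGAA, which reads the same on both strands. No other form of site was searched for. The windows below carry the matches found at the start sites of these genes. They are shown because Cish and Socs3 are induced inhibitors that differed in opposite directions with the signals as deposited. The direction of Cish depended on how the arrays were scaled, as given with its values below. The search covered RefSeq windows of build GRCm38.p6 that run from 250 bases before to 50 bases after a start site, 300 bases in all. Of the 9 genes, 8 had such a window, 10 windows in all, with Socs2 the gene not among them. Cish and Socs3 held a match, and Jak2, Stat2, Stat3, Stat5a, Stat5b and Socs1 held none in these windows. Capitals mark the matches.
Cish: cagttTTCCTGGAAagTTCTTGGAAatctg
Socs3: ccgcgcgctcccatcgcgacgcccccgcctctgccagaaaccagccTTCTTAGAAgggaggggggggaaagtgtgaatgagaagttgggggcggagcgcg
The Cish stretch is chr9:107296654-107296683 on the plus strand. Its 2 matches are TTCCTGGAA, which begins at the start site itself (position 1), and TTCTTGGAA, with 2 bases between them. The Socs3 stretch is chr11:117969467-117969566 on the minus strand, and its match TTCTTAGAA lies 154 to 146 bases before the start site. Over 32851 windows of the same length, 8.3% held at least 1 match and 0.457% held 2 or more. Counted by gene, 9.55% of 27025 genes had a match. A match is a string of letters and does not show that a STAT binds there.

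The values are MAS5 signals, linear intensities that had been scaled so that the trimmed mean of each array was 500.003 or 500.004. Fold changes are given as log2(signal + 16) in leukemic minus that in mature arrays, a scale on which the change of a dim gene comes out too small, and adjusted p values are limma's after Benjamini-Hochberg adjustment over all tested genes or, for single probe sets, over all 27022 tested probe sets. A gene is called at an adjusted p under 0.05 and is read from its brightest probe set. The groups differed widely: 43.4% of the tested genes were called, 27.5% as higher in leukemic marrow and 15.9% as lower, and the median log2 fold change was 0.28. Calls depended on scaling, since 63.3% of the called genes were higher with the signals as deposited, 49.7% with every array at the same median, and 15.4% when the arrays were scaled to the 18 hybridization controls, with the median fold change moving to -0.02 and -0.95. Actin 3′ to 5′ signal ratios, a sign of RNA integrity, were 3.28 and 3.09 for leukemic and 1.32 and 1.39 for mature arrays. Mature replicate 2 stood apart in sex-linked genes, with an Xist signal of 114 against 7138 to 19642 on the other arrays and an Eif2s3y signal of 4409 against 2.51 to 3.01. Mn1 itself, which has 1 probe set here, was too dim to be tested, at 17.7 and 92.6 in leukemic and 3.92 and 12.1 in mature marrow. It is not known here whether these probes can read the introduced MN1.

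Several of the lists of cell type markers separated the groups by maturity and lineage. All 12 tested stem and progenitor markers were higher in leukemic marrow, with summed signals of 66287 and 75646 against 7006 and 7365, and so were 7 of 8 erythroid and 5 of 6 mast cell and basophil markers. All 11 monocyte and macrophage markers were lower, with sums of 15207 and 10813 against 84712 and 51060, and 7 of 14 neutrophil markers were lower and 0 higher, with sums of 512730 and 288968 against 544349 and 441188. The log2 fold changes of the neutrophil markers ran from -3.51 to 0.42, with a median of -0.95. Camp and Ltf, genes of neutrophil granules, were among the 7 not called, with log2 fold changes of 0.03 and -0.34. Camp read 60226 and 33023 in leukemic marrow. Among plasma cell markers Igha and Jchain were lower, with sums for the list of 250.2 and 462 against 6900 and 1803, whereas 0 of 6 B cell markers were called. Of 7 tested megakaryocyte markers 2 were higher and 5 were not called. Of 4 tested T and NK cell markers 1 was higher, 1 was lower and 2 were not called. No marker was listed at 0. These are bulk samples, in which fewer cells of a type and less RNA per cell cannot be told apart. The part of other cell types and of RNA integrity in the results that follow was not tested.

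Of the 9 JAK, STAT and SOCS genes, 3 were higher in leukemic marrow (Socs2, Stat5a and Cish), 2 were lower (Stat3 and Socs3) and 4 were not called (Jak2, Stat2, Stat5b and Socs1). That is 5 of 9 called against 43.4% of all tested genes, a difference from which nothing is read in so few genes. The arrays of the groups did not overlap for 8 of the 9, Stat2 being the exception, and the same was true of 74.2% of tested genes. The median of the 9 fold changes was -0.15, against 0.28 over all tested genes. Of the 23 probe sets, 20 were tested, 4 were higher, 6 were lower and 10 were not called, against 34.9% of all tested probe sets called. The other 3 were dim probe sets of Socs2. Probe sets of the same gene read the same RNA and are not replicates.

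**Figure D1:**
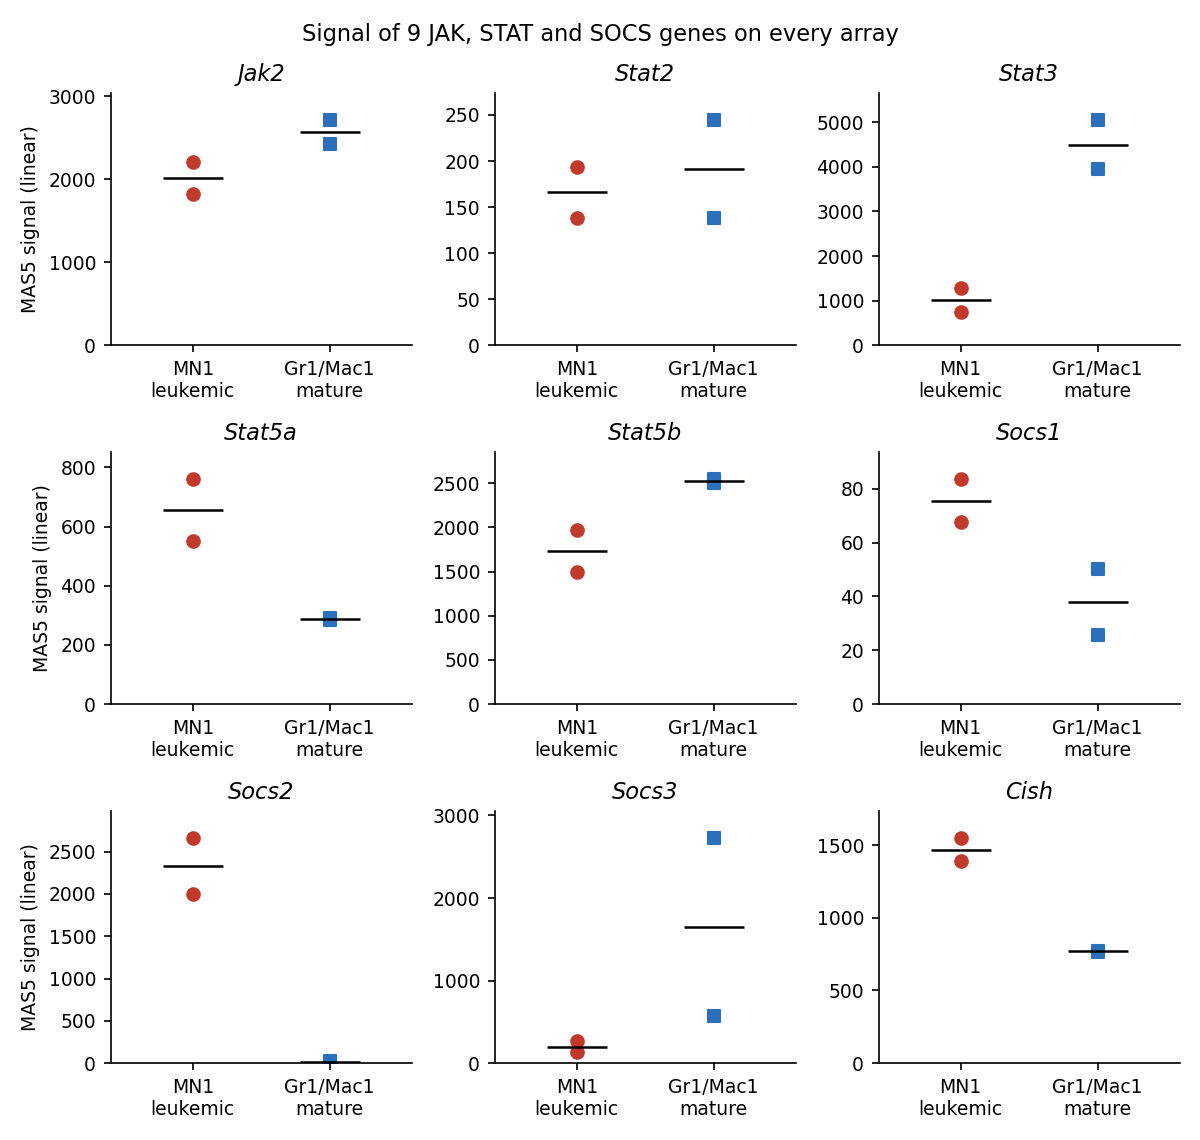
Linear MAS5 signal (vertical axes, each from 0 and on its own scale) of the probe set used for each of the 9 genes. Circles are the 2 MN1 leukemic arrays, squares the 2 Gr1/Mac1 arrays and bars the group means. Socs2 lies at 1997 and 2655 in leukemic marrow against 10.1 and 27.1 in mature cells, and the 2 mature arrays of Socs3, 577 and 2722, lie far apart.

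Jak2, the kinase of the group, was not called. Its signals were 1828 and 2206 in leukemic marrow and 2426 and 2710.1 in mature cells, so each leukemic array lay below each mature array. The log2 fold change was -0.35 (SE 0.23, adjusted p = 0.26). Its other probe set read 501 and 641 against 641 and 736, with a fold change of -0.27 (adjusted p = 0.49). Scaling to the hybridization controls was the single alternative that called it, at -1.67.

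Stat3 was lower in leukemic marrow. It read 1276 and 737 in leukemic marrow and 3944 and 5041 in mature cells, so the brighter leukemic array was still far below the dimmer mature one. The signal in mature cells averaged 4.46 times that in leukemic marrow, with means of 4492.5 ± 776 and 1006.5 ± 381 (SD, n = 2 each), and the log2 fold change was -2.18 (SE 0.32, adjusted p = 0.0022). This held in all 17 alternatives run, with fold changes from -3.50 to -1.69.

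Of the other 3 probe sets of Stat3, the brighter ones fell as well. One read 704 and 428 against 2019 and 2828 (log2 fold change -2.09, adjusted p = 0.0037), and another read 303 and 248 against 1312 and 1566 (log2 fold change -2.32, adjusted p = 0.0015). The dimmest read 98.3 and 128 against 96.3 and 174, with overlapping arrays, and was not called (-0.19, adjusted p = 0.77). The probe sets of Stat3 thus disagreed, with 3 of 4 called lower.

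Stat5a and Stat5b are close relatives that sit side by side with Stat3 on mouse chromosome 11, with 0 protein-coding genes between Stat5b and Stat5a and 0 between Stat5a and Stat3 in the RefSeq annotation of GRCm38.p6. Stat5a read 552 and 759 in leukemic and 284 and 289.7 in mature arrays. Both leukemic arrays lay above both mature arrays, whose values were nearly equal. The log2 fold change was 1.13 (SE 0.29, adjusted p = 0.019), but it fell to -0.15 when the arrays were scaled to the hybridization controls. It was called in 10 of the 16 alternatives that gave it a value, and without leukemic replicate 1 or 2 its adjusted p was 0.065 or 0.21. The dimmer Stat5a probe set read 81.4 and 129 against 30.3 and 114, with overlapping arrays and a fold change of 0.62 (adjusted p = 0.46).

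Stat5b read 1498 and 1972 in leukemic and 2507 and 2541 in mature arrays. The leukemic arrays were the lower pair, and the log2 fold change of -0.55 (SE 0.24) did not pass (adjusted p = 0.11). Its other probe set gave 136 and 211 against 247 and 257, a fold change of -0.53 (adjusted p = 0.29). Scaling to the hybridization controls gave -1.87 and was the single alternative under which Stat5b was called.

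Because scaling multiplies a whole array, the difference between genes on the same array is nearly free of it, and its shift between groups shows whether genes changed unequally. The level of such a difference also holds the brightness of the probes and is not read. Stat5a minus Stat5b was -1.42 and -1.36 on leukemic and -3.07 and -3.06 on mature arrays on the log2 scale. It was thus 1.68 higher in leukemic marrow, and the replicates of each group differed by far less. Stat5a minus Stat3 was -1.19 and 0.04 in leukemic and -3.72 and -4.05 in mature arrays, 3.31 higher in leukemic marrow. Stat5b minus Stat3 was 0.23 and 1.40 against -0.65 and -0.98, 1.63 higher. Of these neighbouring genes, Stat5a was thus higher in leukemic marrow relative to Stat5b, and Stat5b relative to Stat3. The arrays did not overlap in these 3 differences. For those with Stat5a this had to follow from the signals above and adds nothing to them. Both leukemic arrays were already higher than both mature arrays for Stat5a, and lower for Stat5b and Stat3. With 2 arrays against 2, an exact two-sided permutation test cannot go below p = 0.333, and no other test of these differences was run.

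Stat2, the interferon STAT, was the gene of the 9 whose arrays overlapped. It read 138 and 194 in leukemic and 244 and 138 in mature arrays, with a log2 fold change of -0.15 (SE 0.41, adjusted p = 0.79). The spread within each group was larger than the difference between them. Scaled to the hybridization controls it was called, at -1.37 (adjusted p = 0.028). Its other probe set gave 98.0 and 108 against 133 and 119.6, a fold change of -0.26 (adjusted p = 0.64).

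Among the inhibitors, Socs2 differed most. SOCS2 restrains growth hormone and other STAT5-using receptors. The signals were 2655 and 1997 in leukemic marrow and 10.1 and 27.1 in mature cells, below the lowest mean signal of any tested probe set (47.6). Leukemic means of 2326 ± 466 stood against 18.6 ± 12.1 (SD, n = 2 each), and the log2 fold change was 6.11 (SE 0.37, adjusted p = 1.7e-04). Socs2 passed the filter on low signals through its leukemic arrays alone, so the size of its fold change is set in large part by the added 16: it was 7.03 with 1 added and 4.85 with 64 added. It was called in all 17 alternatives run, at 4.15 to 7.03. Detection calls were not analysed here, so the mature signals are read as dim and not as absent.

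The probe sets of Socs2 split by brightness. A second bright one, of the kind that may also match other transcripts (suffix _s_at), read 2240.5 and 2003 against 36.2 and 9.29, a log2 fold change of 5.88 (adjusted p = 3.6e-04). The next in brightness read 86.3 and 157 against 63.9 and 99.3, overlapping and not called (0.47, adjusted p = 0.48). The 3 dim ones were not tested. They read 77.6 and 88.0 against 2.78 and 3.61, then 71.7 and 41.3 against 2.88 and 4.78, then 12.6 and 15.2 against 3.26 and 10.8. In each of these the leukemic arrays were the brighter pair.

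Cish, the other STAT5-induced inhibitor, read 1388 and 1546 in leukemic and 770.5 and 766 in mature arrays. Mature replicates were nearly equal and both leukemic arrays were brighter, by 1.91 times on average. The log2 fold change was 0.92 (SE 0.23, adjusted p = 0.018) with the signals as deposited and -0.39 when scaled to the hybridization controls. Cish was called in 13 of 17 alternatives. It was not called without leukemic replicate 1 (adjusted p = 0.10) or 2 (adjusted p = 0.17), or with every array at the same median (0.60, adjusted p = 0.19). Cish has 1 probe set here, so no second reading exists.

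Socs3, the inhibitor that STAT3 induces and that blocks gp130 and the G-CSF receptor, was lower in leukemic marrow. It read 270.2 and 130.3 in leukemic and 577 and 2722 in mature arrays. Both mature arrays were brighter, but mature replicate 2 was far above replicate 1, and the group means were 200.2 ± 98.9 and 1649 ± 1517 (SD, n = 2 each). The log2 fold change was -2.64 (SE 0.70, adjusted p = 0.021). Mature replicate 2 is the array that stands apart in the sex-linked genes, and without it the fold change was -1.53 (adjusted p = 0.056). Without leukemic replicate 2 it was -2.15 (adjusted p = 0.10).

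The other probe sets of Socs3 were called as well. They read 128 and 88.7 against 609 and 2765 (log2 fold change -3.42, adjusted p = 0.0073), and 99.7 and 83.3 against 350.2 and 752 (log2 fold change -2.31, adjusted p = 0.0067). In all 3 the order of the arrays was the same, with mature replicate 2 the brightest. The first 2 are of the kind (suffix _x_at) whose probes may also match other transcripts, and the last, at -2.31, is not. In the test of probe sets without mature replicate 2, the 3 gave -1.53, -2.35 and -1.77 with adjusted p of 0.046, 0.0066 and 0.015.

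Socs1 was dim, with a mature mean below the lowest kept mean. It read 83.4 and 67.6 in leukemic and 50.2 and 25.8 in mature arrays. The arrays did not overlap, but the log2 fold change of 0.79 (SE 0.53, adjusted p = 0.27) was near its error, and it was -0.22 when scaled to the hybridization controls. Of the 15 alternatives that gave it a value, 0 called it.

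Within arrays, the inhibitors differed from each other as well, by amounts that for Socs2 rest on its dim mature signals and the added constant. Socs2 minus Socs3 was 3.22 and 3.78 in leukemic and -4.51 and -5.99 in mature arrays on the log2 scale, 8.75 higher in leukemic marrow, or 9.76 with 1 and 7.24 with 64 added in place of 16. Socs2 minus Cish was 0.93 and 0.37 against -4.91 and -4.18, 5.19 higher, or 6.10 with 1 and 3.97 with 64 added. Cish minus Socs3 was 2.30 and 3.42 against 0.41 and -1.81, 3.56 higher. In these 3 differences each leukemic array was above each mature array. For the differences from Socs3 this had to follow from the signals above and adds nothing to them. Both leukemic arrays were already higher than both mature arrays for Socs2 and Cish, and lower for Socs3. In the difference from Cish, Socs2 had passed the filter on low signals through its leukemic arrays alone.

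**Figure D2:**
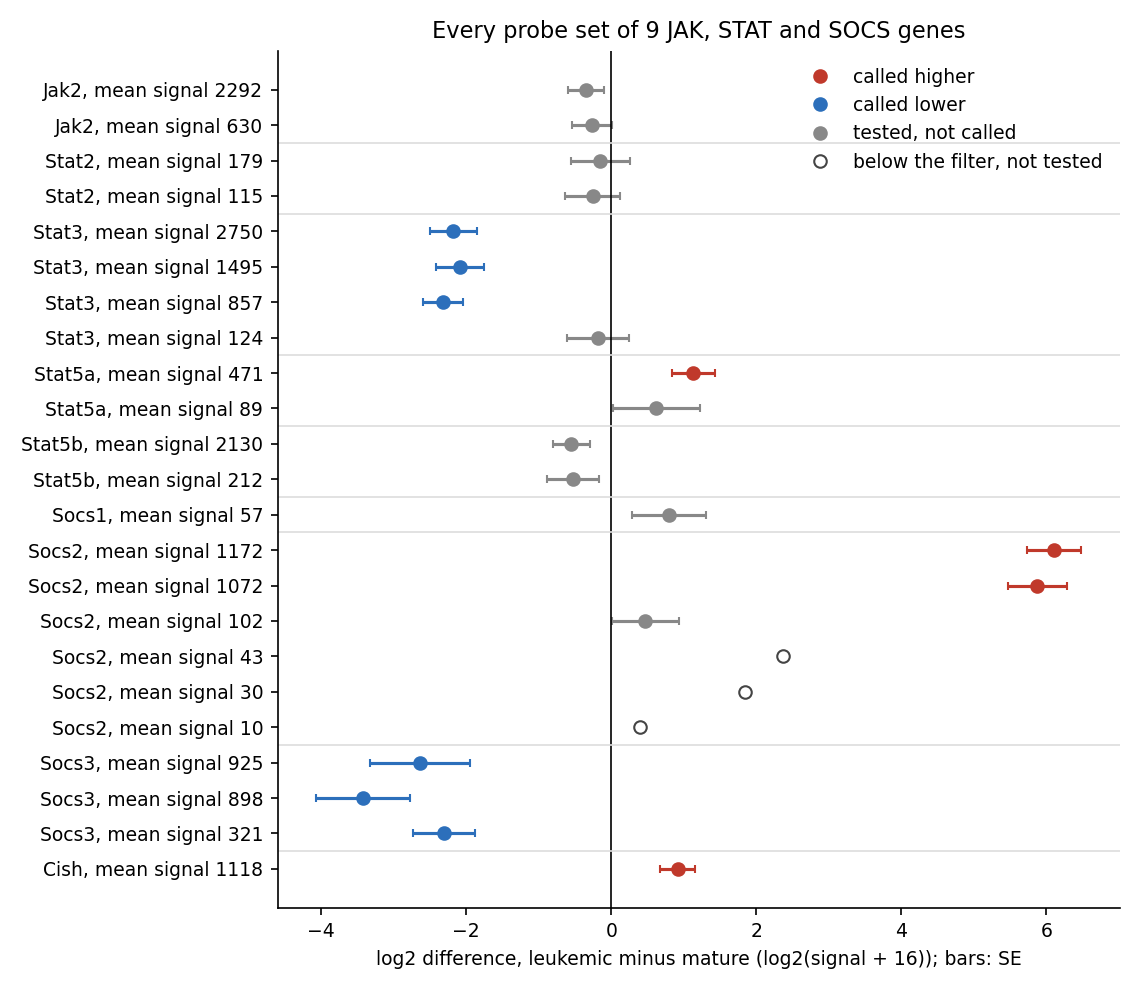
Log2 difference, leukemic minus mature, of log2(signal + 16) for each of the 23 probe sets (horizontal axis), with SE bars from the test of all probe sets; open circles were too dim to be tested. The bright probe sets of Stat3 and Socs3 lie between -3.42 and -2.09 and those of Socs2 at 5.88 and 6.11, while the dimmest tested probe sets of Stat3, Stat5a and Socs2 lie nearer 0.

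The genes whose pattern over the 4 arrays was most like that of Socs2 were Ptger3, a prostaglandin E2 receptor, at a distance of 0.15, Msrb3, a methionine sulfoxide reductase, at 0.40, and Aqp1, a water channel of red cells, at 0.44. The distance is Euclidean over the 4 gene-centred log2(signal + 16) values. Ptger3 read 2318 and 1544 in leukemic against 4.86 and 21.6 in mature arrays, and Msrb3 1260 and 1235 against 2.25 and 8.68. Like Socs2, both passed the filter on low signals through their leukemic arrays alone, so their distances rest in part on the added 16. For Socs3 the nearest genes were Abtb2 at 0.11, Hspa1a, an inducible heat shock protein, at 0.25 and Ly75, an endocytic receptor of dendritic cells, at 0.30. Like Socs3, they were brightest in mature replicate 2. Abtb2 read 519.7 and 235 against 1047 and 4621, Hspa1a 102 and 53.8 against 211 and 1044, and Ly75 398 and 176 against 628 and 3291.

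The other JAK, STAT and SOCS genes also split. Of 9 tested, 2 were higher, 3 were lower and 4 were not called, with a median of -0.00. Over all tested genes, the yardstick for this list and those that follow, 27.5% were higher and 15.9% lower, with a median of 0.28. Socs5, an inhibitor linked to EGF and interleukin-4 receptors, read 1536 and 612 in leukemic against 72.4 and 75.1 in mature arrays (log2 fold change 3.46, adjusted p = 0.0017). Socs7 read 1820.0 and 1749 against 734 and 692 (1.30, adjusted p = 0.0042), and fell to -0.01 when scaled to the hybridization controls.

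Lower in leukemic marrow were Stat4, the STAT of interleukin-12, Jak1, the kinase shared by gp130, interferon and common gamma chain receptors, and Stat6, the STAT of interleukin-4. Stat4 read 302 and 207 against 2329.6 and 1701 (-2.91, adjusted p = 8.0e-04). Jak1 read 2097 and 2070.3 against 5444 and 4800.5 (-1.29, adjusted p = 0.0039), and Stat6 read 2459 and 1908 against 5751 and 4417 (-1.21, adjusted p = 0.0089). Jak3 (0.15), Tyk2 (-0.00), Socs4 (0.47) and Socs6 (-0.07) were not called, with adjusted p values from 0.24 to 1.00.

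Among the receptors of blood cells that signal through JAKs, 1 of 8 tested was higher and 4 were lower, with a median of -1.19. Epor, the erythropoietin receptor, read 1194 and 1611 in leukemic and 73.7 and 125 in mature arrays (3.64, adjusted p = 6.1e-04). It is also among the erythroid markers, 7 of 8 of which were higher. Csf2ra, the GM-CSF receptor alpha chain (-2.68, adjusted p = 0.0025), Csf3r, the G-CSF receptor (-2.55, adjusted p = 0.0026), Crlf2, a chain of the TSLP receptor (-1.91, adjusted p = 0.0016), and Csf2rb, the chain shared by interleukin-3, interleukin-5 and GM-CSF (-1.74, adjusted p = 0.0040), were lower. Csf3r read 4311 and 1899 against 17298 and 16368, so its 2 leukemic arrays also differed widely. It is also among the neutrophil markers. Prlr had no probe set naming it here.

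Of the gp130 family, Il6ra, which binds interleukin-6, was lower (349 and 164 against 2252 and 1706; log2 fold change -2.95, adjusted p = 0.0016), and Il27ra was higher (226 and 350.4 against 23.6 and 3.65; 3.42, adjusted p = 0.0030). Averaged over its kept probe sets Il6ra gave -1.31. Il27ra passed the filter through its leukemic arrays alone, and gave 4.73 with 1 and 2.17 with 64 added in place of 16. The other 3 of 5 tested were not called, among them Il6st, which encodes gp130 itself. It read 228 and 177 against 974 and 267 (-1.29, adjusted p = 0.11), and the mature arrays differed far more than the leukemic ones.

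Among 6 tested common gamma chain receptors and their partners, Il7r was higher (950.1 and 1079.8 against 52.2 and 82.2; 3.65, adjusted p = 5.5e-04), and Il13ra1 (-2.65, adjusted p = 0.0030) and Il4ra (-1.91, adjusted p = 0.010) were lower. Of 8 interferon and interleukin-10 family receptors, Il10ra (-3.00, adjusted p = 0.0019) and Ifnar2 (-1.36, adjusted p = 0.0049) were lower, 0 were higher and 6 were not called. Il10ra read 35.5 and 57.8 in leukemic against 595 and 383 in mature arrays, so it passed the filter through its mature arrays alone, and gave -3.37 with 1 and -2.30 with 64 added in place of 16.

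Of 8 tested cytokines, 2 were higher, 2 were lower and 4 were not called. Their median of 1.26 depended on the filter: it was 0.18 over 21 genes with no filter and -1.35 over 3 genes with the lowest 60% left out. Oncostatin M (Osm), a gp130 cytokine, read 699.8 and 652 in leukemic and 7295 and 7415 in mature arrays (-3.41, adjusted p = 1.9e-04), and Il15 was lower by a smaller amount (-1.35, adjusted p = 0.0057). Il6 read 206 and 486 against 19.1 and 1.33 (3.76, adjusted p = 0.0033) and Il12a read 256 and 124 against 43.2 and 17.4 (2.13, adjusted p = 0.020). Both passed the filter through their leukemic arrays alone, and with 1 or 64 added in place of 16 their fold changes were 5.53 or 2.39 for Il6 and 2.65 or 1.39 for Il12a. Of the listed cytokines, 13 with a probe set were too dim to be tested.

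Phosphatases and other negative regulators were mostly lower, 9 of 14 against 2 higher, with a median of -1.24. All tested genes gave 15.9% lower and 27.5% higher, with a median of 0.28. Dusp22, a phosphatase, fell most (56.2 and 88.1 against 1042 and 406; -2.95, adjusted p = 0.0037). Ptpn6, the phosphatase SHP-1, read 2864 and 2020.3 against 14754 and 9046 (-2.26, adjusted p = 0.0021). Sh2b3, the JAK2 adaptor LNK, read 1128 and 1063 against 4399 and 3799 (-1.89, adjusted p = 0.0012), and the ubiquitin ligase Cbl gave -1.88 (adjusted p = 0.0030). Pias2 (1.10, adjusted p = 0.015) and Cblb (0.94, adjusted p = 0.038) were higher with the signals as deposited, but were -0.19 and -0.34 when scaled to the hybridization controls, and neither was called without leukemic replicate 1 or without leukemic replicate 2.

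Genes listed as STAT5 targets went both ways. Of 18 tested, 4 were higher and 8 were lower, against 27.5% and 15.9% of all tested genes, with a median of -0.18. Gfi1b, a repressor of the erythroid and megakaryocyte lineages, read 1700.0 and 2949 in leukemic and 65.8 and 37.8 in mature arrays (5.09, adjusted p = 3.2e-04). Myc read 4334 and 4014 against 189 and 130.3 (4.60, adjusted p = 1.5e-04). Spry2, an inhibitor of receptor tyrosine kinases, gave 2.25 (adjusted p = 0.0035) and Ccnd2, cyclin D2, gave 1.59 (adjusted p = 0.0098); both complete the 4 and were named after their values were seen. Without leukemic replicate 2, 2 of the 18 were called higher and 8 lower. Osm, also listed with the cytokines, was the lowest, followed by Cd9, a membrane protein (-3.27, adjusted p = 7.7e-04), Bcl6, a transcriptional repressor that STAT5 is known to switch off and not on (935 and 458 against 2845 and 4951; -2.49, adjusted p = 0.0034), and Id1 (-2.34, adjusted p = 0.0026). In the promoter windows described above, Bcl6 held 3 matches to TTCNNNGAA and Gfi1b held 1. Any match was held by 2 of the 13 targets with a window (15.4%, against 9.55% of all genes). The share was 11.8% for STAT3 targets, 19% for interferon-induced genes, 40% for interferon and interleukin-10 family receptors and 0% for negative regulators. Nothing is read from such small counts. Socs2 and Cish belong to the same class of targets and were left out of these counts of STAT5 targets.

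Genes listed as STAT3 targets were mostly lower, 9 of 17 against 1 higher, with a median of -1.31. Beside this list and the interferon-induced genes below stand 15.9% lower and 27.5% higher among all tested genes. Fos, an immediate early transcription factor, read 695 and 772 in leukemic and 34786 and 27368 in mature arrays (-5.37, adjusted p = 1.1e-04). Cebpb (-3.92, adjusted p = 5.4e-04) and Cebpd (-3.38, adjusted p = 8.2e-04), transcription factors of mature myeloid cells, and Junb (-3.69, adjusted p = 2.5e-04) were lower too. Twist1 was higher (134 and 134 against 4.23 and 3.08; 2.93, adjusted p = 0.0055), but it passed the filter through its leukemic arrays alone, and its fold change was 4.87 with 1 and 1.55 with 64 added in place of 16. Interferon-induced genes, whose transcription STAT2 helps to drive, were lower in 10 of 23 and higher in 0, with a median of -0.90. The largest called falls were in Ifit3 (-2.04, adjusted p = 0.0062), Mx1 (-2.02, adjusted p = 0.012), Gbp2 (-2.00, adjusted p = 0.0038) and Irf1 (-1.99, adjusted p = 0.0059). Without leukemic replicate 1, 5 of these interferon-induced genes were lower and 0 higher. The lists of negative regulators, STAT3 targets and interferon targets kept more lower than higher calls in all 16 alternatives that gave them counts. So did the lists of STAT5 targets, blood cell receptors, and interferon and interleukin-10 family receptors. Some of these lists share genes called lower, so their counts are not independent. Pim1 and Mcl1 were listed as targets of both STAT5 and STAT3, and Usp18 both as a negative regulator and as an interferon-induced gene. Monocyte markers, of which 11 of 11 were lower, and neutrophil markers, of which 7 of 14 were lower and 0 higher, moved with these lists. The part of monocytes and neutrophils in these counts was not tested.

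**Figure D3:**
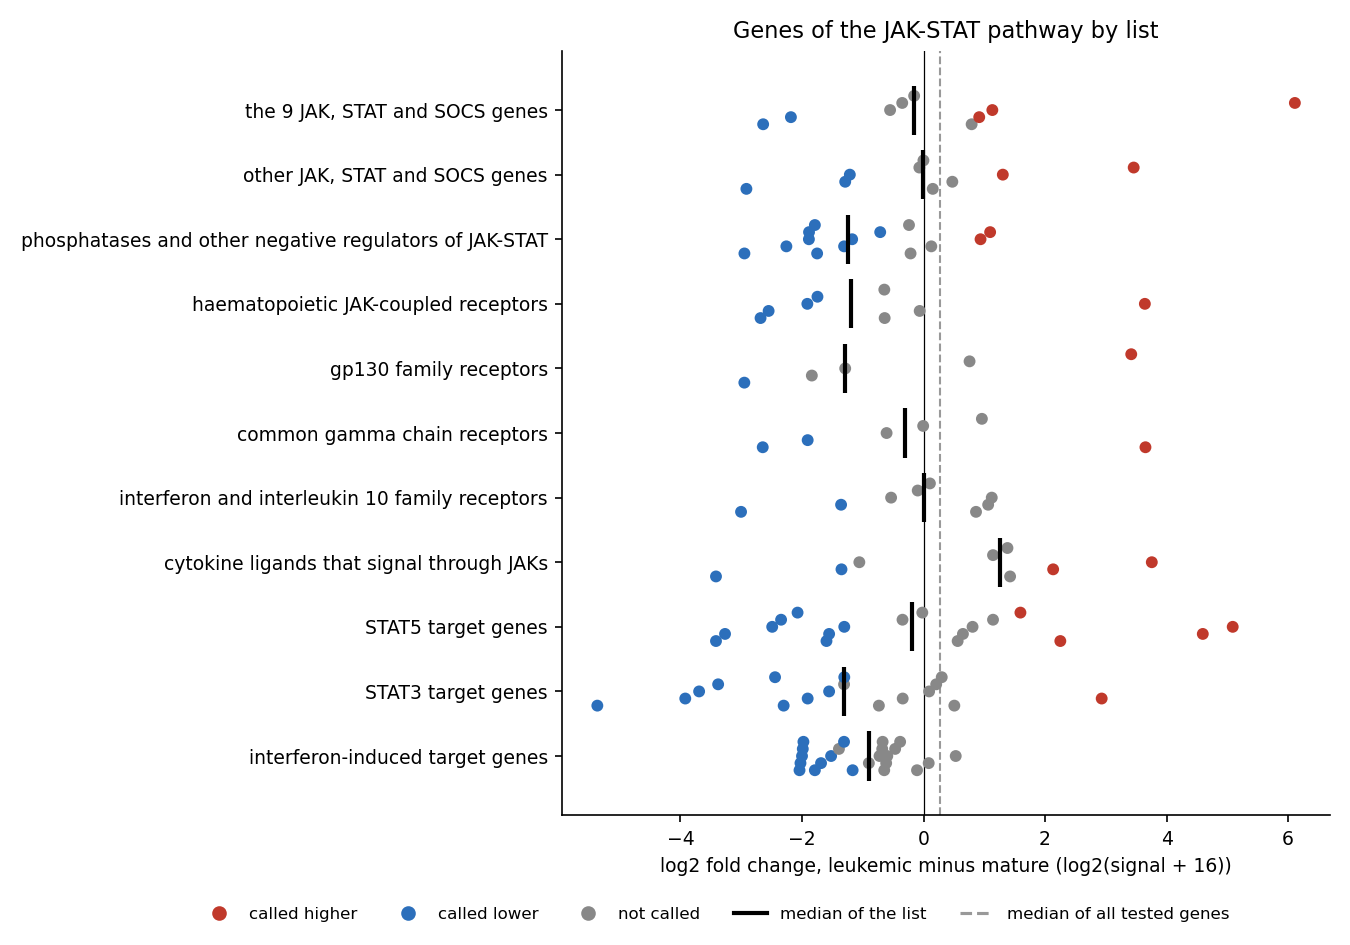
Log2 fold change, leukemic minus mature (horizontal axis), of each tested gene in each list; colours give the call, black bars the median of a list and the dashed line the median of all tested genes, 0.28. STAT3 targets (median -1.31) and negative regulators (median -1.24) lie mostly left of that line, and Socs2 at 6.11 is the point farthest right; scaling to the hybridization controls moves all points left and turns the sign of Stat5a, Socs1, Cish, Socs7, Pias2 and Cblb among others.

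**Figure D4:**
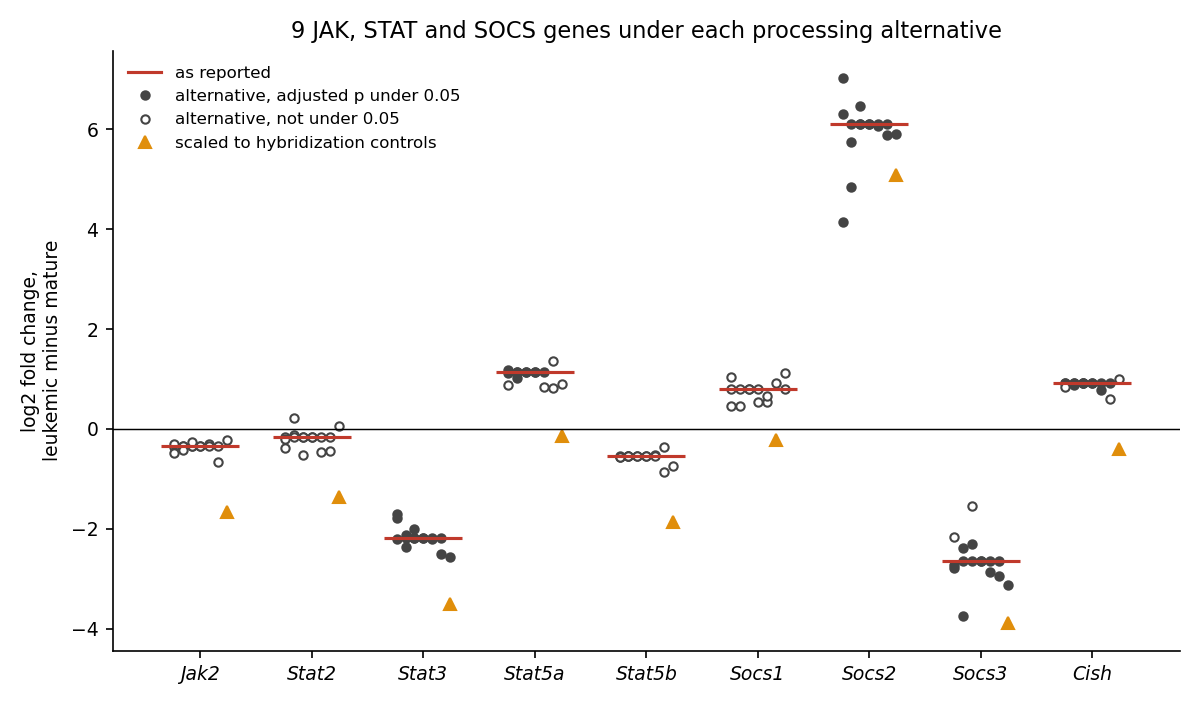
Log2 fold change of the 9 genes (vertical axis) as reported (red bars) and under up to 17 processing alternatives; filled circles had an adjusted p under 0.05, open circles did not, and triangles are the values scaled to the hybridization controls. Socs2 stayed above 4.15 and Stat3 below -1.69, whereas Stat5a, Socs1 and Cish crossed 0 under the control scaling and Stat2 when leukemic replicate 1 or mature replicate 1 was left out.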

How the data were processed

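Total RNA of 4 bone marrow samples was read on single-colour mouse arrays. The deposited table holds linear intensities, MAS5 signals that the authors made with GCOS 1.3.0, as the submitters' processing notes name it; its settings and scale target are not analysed here. MAS5 scales each array linearly, so the make-up of the RNA can move all signals. Of 45037 probe sets that are no controls, 34945 carried a single gene symbol, 932 carried several and 9160 carried none; 34754 were matched by gene ID to RefSeq (GRCm38.p6) and 0 symbols changed. These symbols are those of the platform annotation and may be out of date.

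Tests ran on log2(signal + 16), with no other scaling. The dimmest 40% of probe sets by mean signal were left out, which kept 27022, and each gene was read from its brightest kept probe set. The two-sided comparison used lmFit and eBayes (with a variance trend) of limma 3.58.1, run in R 4.3.3, with 2 residual and 6.90 total degrees of freedom, and the code was checked on simulated data. The median SE was 0.33. The 9 genes, the gene lists and the rules were chosen with earlier results of these data known. Named genes were all JAK, STAT and SOCS genes, in each other list up to 4 called in the leading direction and 2 in the other by size of change, plus Csf2rb, Il6st, Epor and Csf3r; some genes are not reported here; likeness took the 3 nearest genes. Nothing in the labels says that the replicate numbers pair the arrays. Deviations of same-numbered arrays correlated at -0.03 across genes, which with 2 arrays per group cannot settle whether they are paired. Across genes, arrays of the same group correlated at 0.966 (leukemic) and 0.954 (mature), and arrays of different groups at 0.714 to 0.799. Alternatives were pseudocounts of 1 and 64, filters of 0 and 60%, quantile, median and hybridization-control scaling (each group's arrays sharing their mean factor), averaging the probe sets of a gene, each probe set tested, no probe sets with the suffixes _x_at, _s_at or _a_at, no or a robust variance trend, a replicate block, and each array left out. Figures used matplotlib 3.10.9 in Python 3.11.15.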

Additional observations from a re-analysis of the deposited data

How the results depend on the processing

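Stat3 and Socs2 kept their direction and call in all 17 alternatives. Scaling to the hybridization controls changed most: Stat5a became -0.15, Socs1 -0.22 and Cish -0.39 on the log2 scale, with 1 of the 9 genes called higher and 5 lower. With every array at the same median, 3 of the 9 were called and 1 was higher. Stat5a also lost its call under quantile normalization (0.85, adjusted p = 0.060), under the same median (adjusted p = 0.11) and with the mean of its probe sets (adjusted p = 0.097). With each array left out in turn, 2 to 5 of the 9 were called, 1 to 3 higher and 1 to 2 lower, and 2575 to 5441 of all genes were called; Stat2 ranged from -0.53 to 0.22. There the single array left in a group was taken to vary as the opposite group does. The replicate block, which the labels do not support, called 5562 genes against 5375 and changed no call among the 9. Of the other named genes that were called, Cblb was called in 6 of 16 alternatives, Pias2 in 11 of 16 and Il12a in 11 of 14. Jak1, Stat6, Socs7, Il4ra, Ifnar2, Il15, Ccnd2, Spry2 and Mx1 lost their call in 1 or 2 alternatives each. Averaged over their probe sets, Jak1 gave -0.81, Il13ra1 -1.63, Ifnar2 -0.67 and Cebpd -2.22. The lead of lower over higher calls changed in 2 alternatives for the other JAK, STAT and SOCS genes and in 3 for common gamma chain receptors. Under the control scaling 15 of 17 STAT3 targets and 22 of 23 interferon-induced genes were lower. The hybridization controls read 11918 and 8949.8 on leukemic and 4044 and 4167.5 on mature arrays, and the cause of the shift was not tested. Dim signals limit Socs1, the mature Socs2 values and the dim probe sets, and 2 arrays a group limit the rest.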
